A study of Mus musculus with 4 samples.

Results

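The alpha and beta globin loci were described as 2 stretches of a replication profile of mouse embryonic stem cells. The alpha locus comprised the 61 windows of chromosome 11 that start between 31500001 and 33000001, and the beta locus the 56 windows of chromosome 7 that start between 103000001 and 104375001. These are 117 of the 109033 windows of the table, and they hold the member genes Hba-a1, Hba-a2, Hbb-bt and Hbb-bs. The windows were taken by position, in loci chosen with earlier results of these data known. Windows are 100 kb long and spaced 25 kb in GRCm38, so neighbours share reads and are not replicates. All 117 windows had a value in all 4 libraries, and none lay at the bounds of the scale. The 2 wild-type (WT) and 2 Snf2h knockout (KO) libraries came from duplicate cultures of 129S6/SvEvTac embryonic stem cells, grown with serum and LIF on gelatin. Snf2h slides nucleosomes as the motor subunit of ISWI remodellers. The labels do not state how many knockout clones were used. Neither the cell type nor the loss of Snf2h can be checked from a replication profile.

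TrAEL-seq captures free 3′ ends of DNA, and the strand on which such ends lie at replication forks gives the prevailing direction of the forks. Polarity is written here as a signed strand imbalance in percentage points (points), bounded at -50 and 50. Polarity changes sign in one direction across a zone from which forks diverge and in the other direction where forks converge. The sources used here do not state which strand is positive, so rises and falls are given as such and are not assigned to initiation or termination. Whole-library facts touch all values below. The SD of polarity over 23672 autosomal windows that do not overlap was 14.6 and 12.8 points in WT replicates 1 and 2, against 19.5 and 14.5 points in the KO pair replicates 1 and 2. Read depth is unknown, because the table holds no counts. With 2 against 2 libraries the smallest p-value of an exact permutation test is 0.33, so none of these tests could reach 0.05.

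Adult haemoglobin carries a pair of alpha chains and a pair of beta chains, made by gene clusters that are silent in embryonic stem cells and active in red cell precursors. The mammalian alpha cluster is classically described as early replicating in all cell types, among widely expressed genes. The beta cluster is classically described as late replicating outside the erythroid lineage, among olfactory receptor genes. A polarity profile measures fork direction and not replication time.

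The alpha cluster holds the embryonic gene Hba-x, the adult genes Hba-a1 (chr11:32283672-32284486) and Hba-a2 (chr11:32296492-32297310), and the theta-like genes Hbq1b and Hbq1a. The beta cluster holds the adult genes Hbb-bt (chr7:103812524-103813923) and Hbb-bs (chr7:103826523-103827928), followed by Hbb-bh2, Hbb-bh1 and the embryonic gene Hbb-y. Both alpha members lie wholly within the same 4 windows, so their values cannot be separated. The beta members share 3 windows, and each lies in 1 further window without the other. The promoters of the members are shown to mark what the windows hold and how alike the copies are. They run from 250 bases before to 50 bases after the gene start, from RefSeq on GRCm38.p6. The capitals mark matches on either strand to the CCAAT box (letters CCAAT), to the box bound by Klf1 and related factors (letters CACCC) and to the TATA box (letters TATAA). No matches overlapped. The first lies on the plus strand at chr11:32283422-32283721, and the beta promoters lie on the minus strand at chr7:103813874-103814173 and chr7:103827879-103828178.
Hba-a1: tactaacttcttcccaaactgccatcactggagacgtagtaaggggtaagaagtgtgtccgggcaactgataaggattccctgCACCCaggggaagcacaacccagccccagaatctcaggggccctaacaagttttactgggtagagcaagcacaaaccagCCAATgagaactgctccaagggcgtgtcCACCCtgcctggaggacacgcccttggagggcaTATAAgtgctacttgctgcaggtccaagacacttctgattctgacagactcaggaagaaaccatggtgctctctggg
Hbb-bt: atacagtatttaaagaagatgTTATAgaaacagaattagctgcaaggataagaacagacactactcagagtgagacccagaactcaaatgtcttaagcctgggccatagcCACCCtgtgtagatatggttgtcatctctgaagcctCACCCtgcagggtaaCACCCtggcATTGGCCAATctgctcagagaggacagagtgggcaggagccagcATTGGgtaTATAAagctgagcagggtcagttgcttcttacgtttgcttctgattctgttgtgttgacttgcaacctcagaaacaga
Hbb-bs: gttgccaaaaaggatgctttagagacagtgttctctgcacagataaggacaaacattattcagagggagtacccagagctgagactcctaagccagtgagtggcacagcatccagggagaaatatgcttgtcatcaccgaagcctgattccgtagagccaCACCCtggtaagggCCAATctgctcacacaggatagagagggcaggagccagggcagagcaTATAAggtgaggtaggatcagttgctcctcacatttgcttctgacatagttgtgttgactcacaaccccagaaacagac

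The Hba-a2 promoter matched that of Hba-a1 over 297 of 303 aligned columns (98.0%), whereas Hbb-bt and Hbb-bs matched over 219 of 307 (71.3%). How the authors treated reads that fit both alpha copies is not given in the sources used here. All 4 member promoters held each of the 3 motifs. Of 32851 promoters of that length in the RefSeq table, 37.4% held the first, 57.5% the next and 24.9% the last. The loci differed in composition beyond the members. Median GC content was 52.7% over 33 promoters of the alpha locus and 40.0% over 75 promoters of the beta locus, against 52.7% over all. At least 10 CpG dinucleotides were found in 13 promoters of the alpha locus (39.4%) and in 0 of the 75 of the beta locus, against 43.5% of all.

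The loci also differed in gene content. RefSeq lists 20 protein-coding genes in the alpha locus. These included Nprl3 (whose introns carry the alpha globin enhancers), the DNA glycosylase gene Mpg, Rhbdf1, Snrnp25, the interleukin receptor gene Il9r, the kinase gene Stk10 and the ubiquitin ligase gene Fbxw11. The beta locus holds 82 protein-coding genes, 60 of them olfactory receptor genes named Olfr and 10 of them Trim genes, a family of ubiquitin ligases with antiviral members. The olfactory genes lie on both sides of the globin genes, and the Trim genes lie together at the end with the highest coordinates.

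The globin genes of both loci lay where polarity was negative in every library, and the beta genes lay further from 0. Over the 4 windows that wholly hold Hba-a1 and Hba-a2, mean polarity was -9.87 and -9.49 points in WT replicates 1 and 2 and -8.74 and -7.55 points in the KO pair replicates 1 and 2. The values of the genotypes did not overlap, and KO was closer to 0 by 1.53 points (replicate SD pooled over both genotypes 0.624; exact permutation p = 0.33). After each library was standardised, that is, centred and rescaled to the mean SD of the 4 libraries, KO minus WT was 3.42 points. On the deposited scale the 4 windows did not all differ in the same direction. In that from 32250001 both KO libraries were below both WT libraries, by a mean difference of -1.51 points. After standardising, the genotypes overlapped in that window, and KO minus WT ran from 0.378 to 5.77 points over the 4 windows. Over the 3 windows that wholly hold Hbb-bt and Hbb-bs, mean polarity was -23.0 and -26.6 points in the WT pair. In the KO pair it was -30.8 and -25.9 points. Here KO replicate 2 lay between the WT libraries. The difference was -3.58 points, about the pooled SD of 3.05 (exact permutation p = 0.667), and turned to 2.12 points after each library was standardised. Omission of 1 library gave 0.937 to 2.12 points for the alpha genes and -6.03 to -1.13 points for the beta genes.

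Averaged over whole loci, polarity was lower in the beta than in the alpha locus in both WT libraries and KO replicate 2, but not in KO replicate 1. Mean polarity of the alpha locus was -6.40 and -6.45 points for WT and -9.67 and -3.91 points for KO, and of the beta locus -8.56 and -7.01 points for WT and -7.67 and -6.75 points for KO. On the deposited scale the genotypes overlapped in both loci, with differences of -0.370 (alpha, exact permutation p = 1) and 0.572 points (beta, exact permutation p = 0.667). After standardising, the differences were 1.34 points (alpha, exact permutation p = 0.667) and 2.10 points (beta, exact permutation p = 0.33, the smallest possible here).

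At the genes themselves, within each library, polarity was higher, that is closer to 0, at the alpha than at the beta globin genes. The gap was 13.1 and 17.1 points for WT (mean 15.1 ± 2.85, SD, n = 2) and 22.1 and 18.4 points in the KO pair (mean 20.2 ± 2.63, SD, n = 2). An exact sign-flip permutation test over the 4 libraries gave p = 0.125, the smallest that 4 libraries allow. The gap was wider in both KO libraries than in both WT libraries, by 5.11 points with a pooled replicate SD of 2.74 points (exact permutation p = 0.33). After standardising the gaps overlapped between genotypes and KO minus WT was 1.30 points (exact permutation p = 1). Omission of WT replicate 1 or KO replicate 1 gave 3.10 and 3.25 points.

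**Figure D1:**
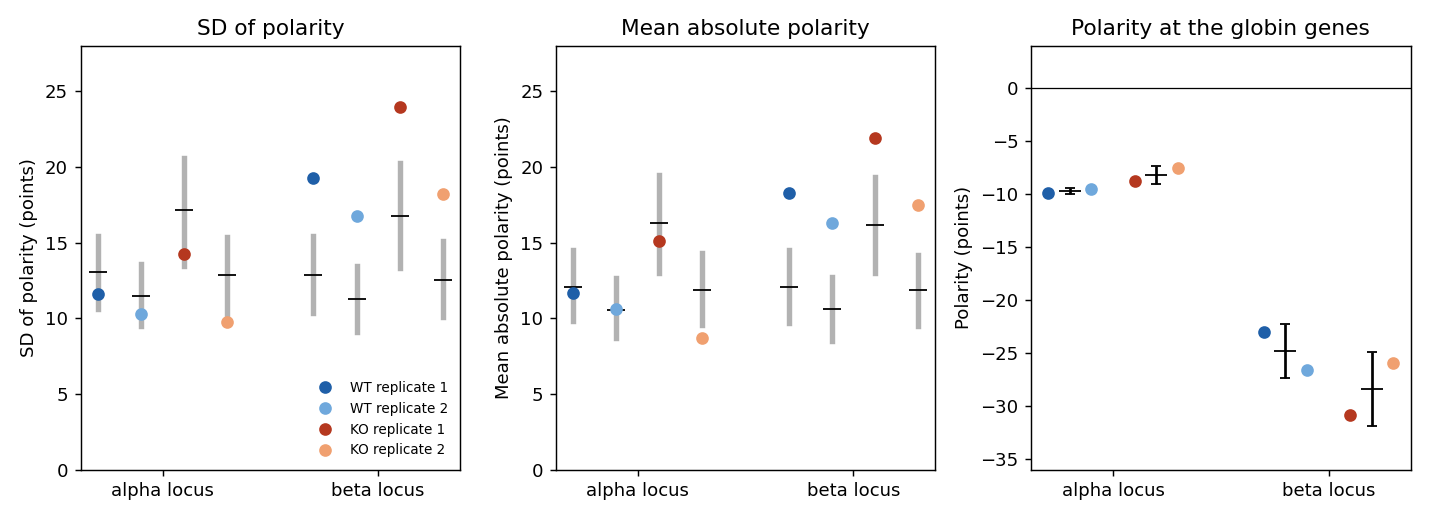
SD of polarity over the windows of each locus (left), mean absolute polarity (middle) and mean polarity of the windows that hold the member genes (right), in points, with a coloured dot for each library. Grey bars and black ticks at the left and middle are the quartiles and the median over autosomal stretches of equal length, and black ticks with error bars at the right are the mean ± SD of a genotype (n = 2). The beta locus lies above the upper quartile in all 4 libraries, whereas the alpha locus lies below the median in SD of polarity.

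The amplitude of the profile over the whole loci was also compared within each genotype. The SD of polarity over the alpha locus was 11.6 and 10.3 points in the WT pair and 14.2 and 9.78 points in the KO pair. Over the beta locus it was 19.3 and 16.8 points in the WT pair and 23.98 and 18.2 points in the KO pair. The beta locus thus had the higher SD in 4 of 4 libraries. The alpha minus beta difference was -7.07 ± 0.831 for WT and -9.08 ± 0.930 for KO, in points (SD over n = 2; exact sign-flip permutation p = 0.125 over the 4 libraries). Within 250 kb of the globin genes the order of the SDs turned, to 1.29 points in the WT pair and 2.04 points in the KO pair. Mean absolute polarity kept its order. The alpha minus beta difference was -6.64 and -5.68 points for WT (mean -6.16 ± 0.684, SD, n = 2) and -6.78 and -8.79 points in the KO pair (mean -7.79 ± 1.42, SD, n = 2). Within 250 kb of the globin genes these differences were -14.1 points in the WT pair and -17.3 points in the KO pair.

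The contrast of the loci was larger in KO on the deposited scale. The alpha minus beta difference in SD was more negative in both KO libraries than in both WT libraries, by -2.01 points with a pooled replicate SD of 0.882 points (exact permutation p = 0.33). After standardising it was -0.399 points (exact permutation p = 1). KO replicate 1, the library with the highest SD over all autosomal windows, also had the highest SD in both loci. Against 1643 autosomal stretches of 56 windows, the SD of the beta locus was 1.43 to 1.50 times the median of the same library. Against 1507 stretches of 61 windows, the SD of the alpha locus was 0.762 to 0.896 times the median, and it fell below the lower quartile only in KO replicate 2.

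The beta profile descended across the olfactory receptor genes, stayed low over the globin genes and rose steeply across the first Trim genes. In the first 4 windows, from 103000001 to 103175000, polarity was positive in every library, with medians of 16.0 and 13.8 points in the WT pair and 27.1 and 18.9 points in the KO pair. It crossed 0 at 103252128 on the mean profile, returned briefly above 0 in WT replicate 1 and KO replicate 1, and was negative in every library over a plateau of 22 windows from 103600001 to 104225000. Plateau medians were -26.8 and -23.4 points in the WT pair and -29.9 and -22.8 points in the KO pair. The highest plateau value of any library was -13.9 points, in WT replicate 2. The Hbb genes lie in this plateau, with Olfr67 and Olfr66 on their sides.

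**Figure D2:**
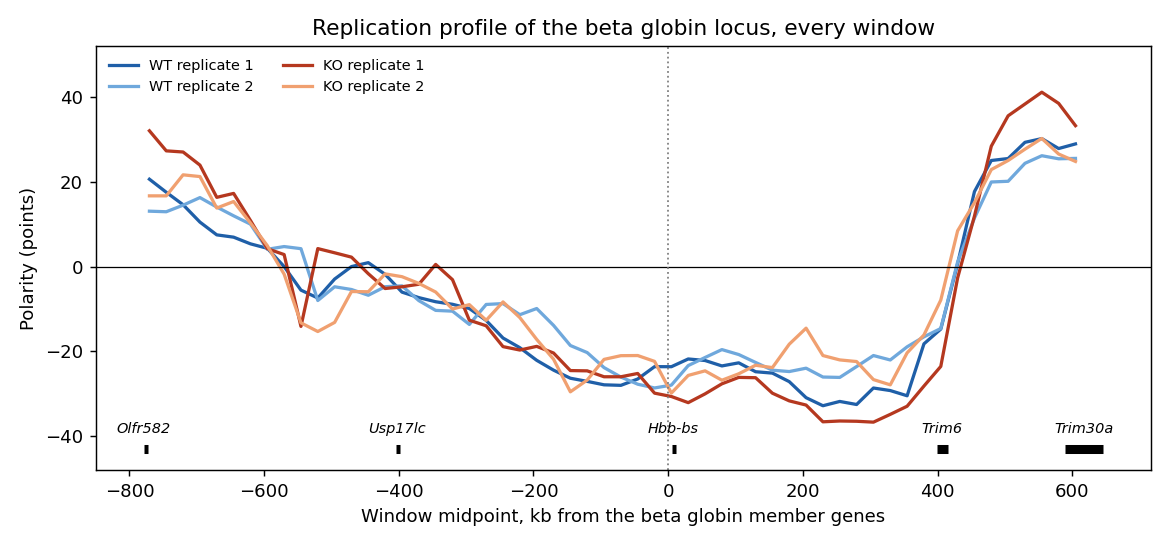
Polarity (points) in every window of the beta globin locus against the distance of the window's midpoint from Hbb-bt and Hbb-bs (kb), with a line for each library and bars for selected genes (genes shorter than 6 kb are drawn as 6 kb). All 4 libraries fall from positive values at the left to a plateau with medians between -29.9 and -22.8 points and rise across 0 about 427.3 kb beyond the globin genes.

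The rise from the plateau spanned 275 kb on the mean profile of all libraries, from midpoint 104100001 to 104375001, and so ran from the last olfactory receptor genes (Olfr648, Olfr649) into Trim6, Trim34a, Trim5 and Trim12a. Between these ends, on a running mean of 5 windows, polarity rose by 59.3 and 48.0 points in the WT pair and by 73.5 and 50.8 points in the KO pair. KO replicate 2 lay between the WT libraries, and the difference of 8.48 points was below the pooled SD of 12.7 (exact permutation p = 0.667). Without KO replicate 1 it was -2.87 points, and after standardising it was -4.01 points. The 6 windows from 104250001 take in the upper part of the rise and the windows past its end. Their medians were 28.4 and 24.9 points in the WT pair and 36.9 and 25.8 points in the KO pair. The highest window of the beta locus, from 104325001 over Trim34b, Trim12c, Trim30b and Trim30c, reached 30.2 and 26.1 points for WT and 41.1 and 30.2 points for KO. Both KO values were above both WT values, though KO replicate 2 only barely. The lowest window by the WT mean, from 104000001 over Olfr638 to Olfr642 among others, had -32.8 and -26.0 points for WT and -36.6 and -21.0 points for KO, so each genotype's replicates differed more than the genotypes did. The lowest by the KO mean, from 104075001 over Olfr645 and Olfr646 among others, had -28.6 and -21.0 points for WT and -36.7 and -26.6 points for KO, which also overlapped.

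The position of this rise differed little between libraries. Polarity crossed 0 at 425.1 and 428.9 kb from the globin genes in WT and at 435.3 and 416.8 kb in KO. The genotype difference of -0.925 kb was well under the replicate SD of 9.42 kb and the 25 kb spacing (exact permutation p = 1). On the side with the lower coordinates, the falling crossing lay at -576 and -545 kb from the genes in WT and at -540 and -583 kb in KO, which also overlapped.

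The alpha profile was shallower and had a rise beyond the globin genes as well. Rises called before the genes in some libraries are given with the segments below. Over the 12 windows from 32125001 to 32500000, which hold the globin genes with Nprl3, Mpg and Rhbdf1 on one side and Sh3pxd2b on the other, polarity was negative in all libraries. Medians were -10.8 and -10.6 points in the WT pair and -11.2 and -6.11 points in the KO pair. From midpoint 32350001 to 32725001, across Ubtd2, Efcab9, Stk10 and Fbxw11, it rose by 28.2 and 20.6 points in the WT pair and by 29.3 and 20.1 points in the KO pair. The genotype difference was 0.332 points with a pooled replicate SD of 5.98 points (exact permutation p = 1). Its sign was not stable: it was -3.50 points without WT replicate 2, -4.26 points without KO replicate 1 and -4.91 points after standardising.

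**Figure D3:**
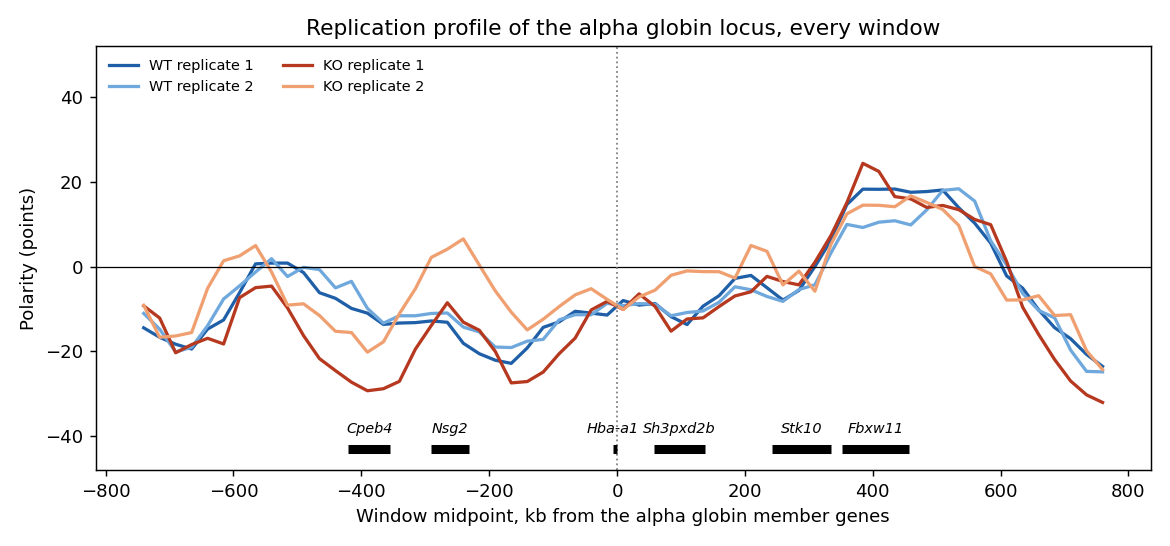
Polarity (points) in every window of the alpha globin locus against the distance of the window's midpoint from Hba-a1 and Hba-a2 (kb), with a line for each library and bars for selected genes (genes shorter than 6 kb are drawn as 6 kb). All 4 libraries are negative at the globin genes, with means between -9.87 and -7.55 points, and their crossings nearest to that of the mean profile lie between 287.2 and 316.4 kb beyond them, and the KO libraries part from each other over Nsg2.

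Polarity crossed 0 in this rise at 300.2 and 316.4 kb from the alpha genes in WT and at 287.2 and 291.4 kb in KO. Both KO positions were nearer to the globin genes, with a difference of -19.03 kb (replicate SD 8.37 kb; exact permutation p = 0.33; -10.9 kb without WT replicate 2), which is under the 25 kb spacing of the windows. KO replicate 2 changed sign more than once in this stretch, and 291.4 kb is its crossing nearest to that of the mean profile. Its first rising crossing past the genes lay at 165.7 kb, and with first crossings KO minus WT was -81.9 kb (pooled SD 61.2 kb; exact permutation p = 0.33). The profile then peaked, over Fbxw11 by the KO mean and over Smim23 by the WT mean. It fell again across 0 near 32893846, to medians between -28.6 and -15.7 points in the last 4 windows. The highest window by the WT mean, from 32750001 over Smim23, had 18.0 points in each WT library and 14.4 and 13.4 points in the KO pair, a difference of -4.08 points with a pooled replicate SD of 0.481 (exact permutation p = 0.33). The highest by the KO mean, from 32625001 over Fbxw11, had 18.2 and 9.21 points for WT and 24.3 and 14.5 points for KO, which overlapped. The lowest of both genotypes, from 33000001 with no protein-coding gene, had -23.5 and -24.8 points for WT and -32.0 and -24.3 points for KO.

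The beta rise was 2.10 and 2.34 times the alpha rise in WT and 2.51 and 2.52 times in KO. This ratio does not depend on the scale of a library. It was higher in both KO libraries, by 0.297 with a pooled replicate SD of 0.117 (exact permutation p = 0.33). With each library's own segment ends the difference was 0.787, with a pooled SD of 0.443. Omission of 1 library gave 0.179 (without WT replicate 1) to 0.414.

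Genotypes were then compared window by window. Over 23672 autosomal windows spaced 100 kb, 13 (0.0549%) passed an adjusted p of 0.05 in limma. In the loci, 0 of 16 alpha windows and 0 of 14 beta windows passed; the lowest adjusted p-values were 0.261 and 0.568. At an unadjusted p under 0.05 there were 2 alpha windows (1 higher and 1 lower in KO) and 0 beta windows, against 12.2% of all windows. The window that holds the alpha globin genes from 32200001 differed by 3.45 points (SE 4.55; limma adjusted p = 0.779) and that of the beta globin genes from 103800001 by -6.31 points (SE 4.60; limma adjusted p = 0.587). Omission of a KO library moved the alpha window to 5.95 points (without replicate 1) or 0.942 points (without replicate 2), and standardising moved it to 5.77 points. For the beta window the same omissions gave -3.10 and -9.52 points. Over overlapping windows, 0 of 61 alpha and 0 of 56 beta windows passed, against 0.076% of all. These fits do not show that the genotypes have the same values. The counts turned on KO libraries. Without KO replicate 1, 1 alpha window and 0 beta windows passed, and without KO replicate 2, 2 alpha and 2 beta windows passed; over all autosomes 1371 and 4790 windows then passed. Without WT replicate 1 or 2, 8 and 7 windows passed over all autosomes and 0 in both loci. The lone KO library is assumed in those fits to vary like the WT libraries.

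Libraries of the genotypes did not overlap in 23 of 61 alpha windows (11 higher and 12 lower in KO) and in 15 of 56 beta windows (9 higher and 6 lower). Over all autosomal windows the share was 44.6%, with 22.2% higher and 22.5% lower in KO, so both loci lay below it, at 37.7% and 26.8%. After standardising the counts were 33 of 61 (54.1%) and 18 of 56 (32.1%), against 45% of all autosomal windows, so the alpha locus then lay above that share. The median absolute difference between genotypes was 3.01 points in the alpha locus and 2.69 points in the beta locus, against 4.45 points over all windows. The KO libraries differed from each other by a median of 9.13 points in the alpha locus and 5.78 points in the beta locus, against 6.09 points over all windows. The WT libraries differed by 1.97, 4.47 and 3.35 points. Across windows of the alpha locus, Pearson's r was 0.960 between the WT libraries, 0.848 between the KO libraries and 0.731 to 0.898 between genotypes. Across windows of the beta locus it was 0.967, 0.950 and 0.956 to 0.978. These correlations are descriptions over neighbouring windows that share reads.

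**Figure D4:**
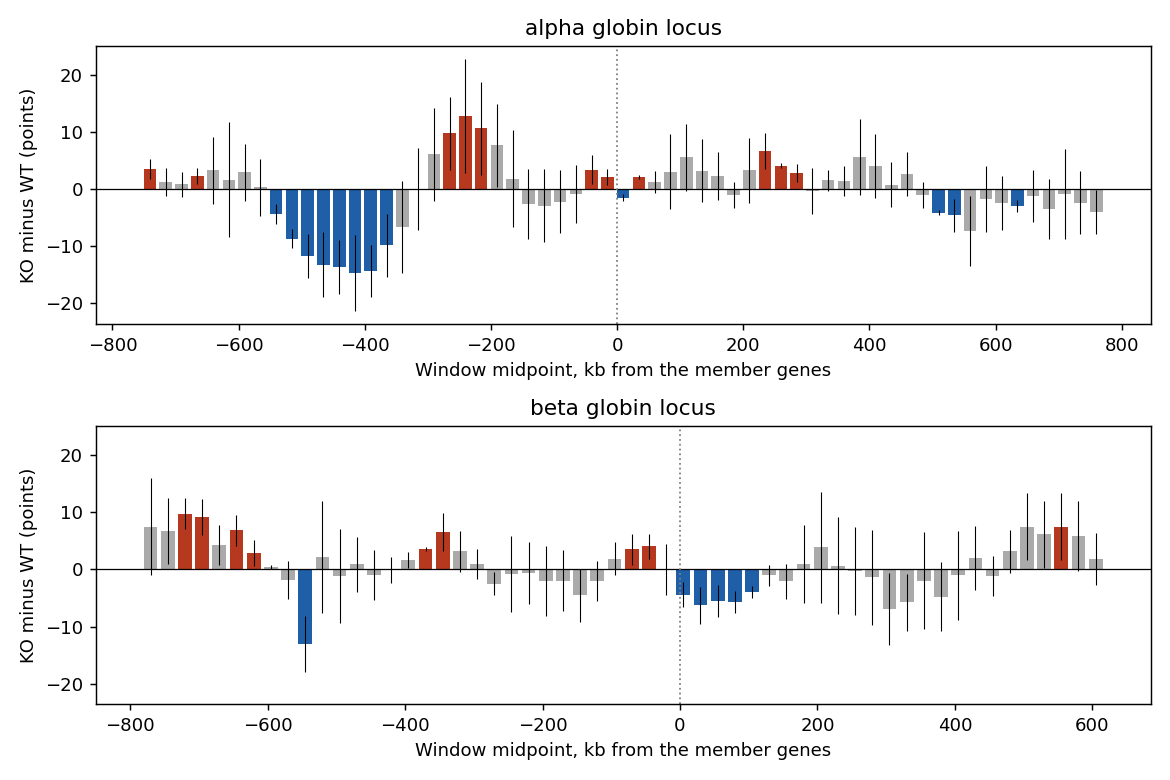
KO minus WT polarity (points) in every window of the alpha (top) and beta (bottom) locus, against the distance of the window's midpoint from the member genes (kb). Error lines are the replicate SD pooled over both genotypes (n = 2 each), red and blue bars are windows in which both KO libraries lay above or below both WT libraries, and grey bars are the others. The largest differences of the alpha locus, down to -14.7 points, lie on the side with the lower coordinates, over Cpeb4, and windows that hold beta globin genes lie on both sides of 0.

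The largest differences of the alpha locus lay over Cpeb4, a gene for an RNA-binding protein that controls polyadenylation. In the window from 31825001 polarity was -9.86 and -3.49 points in the WT pair and -27.2 and -15.5 points in the KO pair, a difference of -14.7 points (replicate SD 6.66; exact permutation p = 0.33). In the window from 31850001 it was -11.0 and -9.85 points in the WT pair and -29.3 and -20.2 points in the KO pair, a difference of -14.3 points. Both KO libraries lay below both WT libraries in all 8 windows from 31700001 to 31975000, before and after standardising. This stretch was chosen after its values were seen, and its windows overlap and share reads. Over all autosomal windows, KO was lower without overlap in 22.5% on the deposited scale. The window from 31800001 of the limma fit differed by -13.6 points (SE 4.73; limma adjusted p = 0.261). Without KO replicate 2 it was -18.3 points with an adjusted p of 0.00130 in limma, and without KO replicate 1 it was -9.003 points with an adjusted p of 0.221. Without WT replicate 1 or 2 it was -14.9 and -12.4 points and passed in neither fit.

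Next to it, over the neuronal gene Nsg2, the KO libraries were higher, but unequally. This stretch was chosen after its values were seen. In the window from 32000001 polarity was -18.1 and -14.3 points in the WT pair and -13.1 and 6.52 points in the KO pair. After standardising, KO replicate 1 lay further from WT, at -10.2 points against -18.9 and -16.9 points in the WT pair. On the deposited scale KO replicate 1 was close to WT replicate 2, whereas KO replicate 2 was positive. KO minus WT was 12.9 points (SE 5.47; limma adjusted p = 0.354). Without KO replicate 1 it was 22.7 points (limma adjusted p = 7.78e-05), and without KO replicate 2 it was 3.07 points (limma adjusted p = 0.645). With the replicate number as a block and standardising it was 16.3 points (limma adjusted p = 0.00736). It did not pass with the block alone (12.9 points; limma adjusted p = 0.0898) or with standardising alone (16.3 points; limma adjusted p = 0.138).

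In the beta locus the largest difference lay in the window from 103225001, which overlaps Usp17ld (a deubiquitinase gene), Olfr596 and Olfr597. Polarity was -5.56 and 4.22 points in the WT pair and -14.1 and -13.3 points in the KO pair, a difference of -13.0 points (replicate SD 4.90; exact permutation p = 0.33). Both its overlapping neighbours 25 kb away had overlapping genotypes. The next largest were the windows from 103050001 and 103075001, which hold olfactory receptor genes (Olfr584, Olfr585 and Olfr586 among them). The window from 103050001 had 14.6 and 14.5 points in the WT pair and 27.0 and 21.6 points in the KO pair, a difference of 9.79 points (replicate SD 2.69; exact permutation p = 0.33). The window from 103075001 had 10.5 and 16.3 points for WT and 23.9 and 21.2 points for KO, and the genotypes again did not overlap. After standardising the window from 103050001 differed by 5.78 points without overlap, whereas the genotypes overlapped in that from 103075001.

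The windows that hold Hbb genes did not all differ in the same direction. In the window from 103725001, which holds Hbb-bt and not Hbb-bs, both KO libraries were above both WT libraries, by 4.03 points. The window from 103750001, which holds both members, had overlapping genotypes and a difference of 0.00976 points. From 103775001 to 103975000, a stretch chosen after its values were seen, both KO libraries lay below both WT libraries in 5 of 5 windows, by 3.98 to 6.31 points (-6.31 and -3.98 points). After standardising this held in 0 of the 5. Over the 22 windows of the plateau, KO was higher in 2 and lower in 5 on the deposited scale. After standardising it was higher in 10 and lower in 0. Over all autosomal windows, the genotypes did not overlap in 44.6% on the deposited scale (22.5% lower in KO) and in 45% after standardising. The plateau windows overlap and share reads. After standardising, the window from 103800001 differed by -0.821 points (limma adjusted p = 0.946). Its values had been -21.8 and -23.3 points in the WT pair and -32.1 and -25.7 points in the KO pair.

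Segments were called to count transitions, on a running mean of 5 windows with a change of at least 1 SD of the library. The beta locus had 1 rising and 2 falling segments in every library. In the alpha locus, rising segments numbered 2 in each WT library and 1 and 2 in the KO pair, and falling segments 2 in each WT library and 2 and 3 in the KO pair (exact permutation p = 1 for each). The first WT rise of the alpha locus, of 15.7 and 15.2 points, spanned Bod1, a gene for a chromosome segregation protein. No rise past the minimum was called there in the KO libraries. KO replicate 2 went from -12.6 to 0.490 points there, under its own minimum of 14.5 points but above the 12.8 points asked of WT replicate 2. The additional rise of KO replicate 2, of 17.6 points between midpoints 31875001 and 32025001, ran from Cpeb4 into Nsg2.

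Genes of haemoglobin production elsewhere in the genome were examined in the same fit. The list had 25 autosomal genes, of which 24 could be placed in a tested window. It held erythroid transcription factor genes such as Klf1, Tal1 and Bcl11a, genes of haem synthesis such as Alad, Uros and Fech, and the other globin genes Mb, Ngb and Cygb. In limma 0 of 24 passed in either direction, against 0.0549% of all windows. At an unadjusted p under 0.05 there were 3, a share near the 12.2% of all windows. Differences ranged from -13.8 to 11.5 points, and the median absolute difference was 2.77 points, against 4.44 points over all tested windows. The lowest adjusted p in limma was 0.248, at Urod, which encodes an enzyme of haem synthesis. Its window had -11.7 and -6.29 points in the WT pair and -23.6 and -22.0 points in the KO pair.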

How the data were processed

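TrAEL-seq was performed on 2 WT and 2 Snf2h KO libraries, grouped by their labels. Per the submitters' processing notes and the file headers, the authors used Trim Galore 0.6.5 and Bowtie2 2.4.1 with GRCm38 and deduplicated reads per library. The deposited values are a score, a signed strand imbalance from -50 to 50 points in 100 kb windows every 25 kb. The counting program, the positive strand, any read minimum and depth are not given in the sources used here, so no counting interval was computed. For WT replicate 2, the label and the column name carry different index sequences. Alignment used the GRCm38 reference, which is another strain than the cells.

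The analysis took full-length autosomal windows measured in all libraries (94694, of which 23672 are spaced 100 kb). For these last, genotypes were compared by limma 3.58.1 under R 4.3.3 (genotype as the only term, Benjamini-Hochberg adjustment, threshold 0.05). The limma script was tested on simulated data. Locus measures, with 1 value per library, were tested by exact permutation (two-sided). Benjamini-Hochberg adjustment over 12 of these (mean, SD and absolute polarity and polarity at the genes, for each locus and their difference) gave 1 throughout. P-values refer to these duplicate cultures only. Those of limma rest on variances moderated over all tested windows, and those of the permutation tests on reassigned library labels or signs. Standardised values were rescaled to the mean SD of the 4 libraries. Matching of a crossing to a library allowed 150 kb. Named windows were those of the member genes, the extremes of the profile and the 3 largest differences per locus without overlap between genotypes.

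Loci, members, gene lists and tests were chosen with earlier results of these data known. The size and ratio of the rises, the crossings, the named stretches, genes named along the profile such as Nsg2, Bod1, Olfr66 and Olfr67, and the promoter measures were chosen after seeing the values. Replicate numbers are shared by the genotypes, but no label says that they pair the cultures. Alternatives were other scales, window sets, extents, running means, minimum changes, the replicate block and omission of each library. Polr3k, listed as a neighbour of the alpha genes, lies on chromosome 2 in mouse and was not used, and Ahsp and Hbb-bh0 were not analysed here. Scripts ran under Python 3.11.15 (tables in pandas 2.3.3 and numpy 2.4.6, tests in scipy 1.17.1, plots in matplotlib 3.10.9).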

Additional observations from a re-analysis of the deposited data

How the results depend on the processing

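Permutation tests of 4 libraries cannot reach 0.05 and so say nothing about stability; read depth is unknown. Of 128 alternatives other than omitted libraries, 14 reversed the sign and 13 moved a count by over 1.5 times or an untested value by over the replicate SD. Counts of non-overlapping windows were compared as shares of the windows used. The other 101 did not reverse and did not move past these limits or the threshold, which allows large moves of tested values (the SD contrast between genotypes went from -2.01 to -0.399 points on standardising), and the cause was not tested unless stated. Standardising, which divides out each library's amplitude, turned the KO minus WT difference in mean polarity of the alpha locus from -0.370 to 1.34 points, in SD from 1.05 to -1.47 points (alpha) and from 3.06 to -1.07 points (beta), at the beta genes from -3.58 to 2.12 points, and in the rise from 0.332 to -4.91 points (alpha) and from 8.48 to -4.01 points (beta). It moved the WT contrast in mean absolute polarity from -6.16 to -6.92 points, and windows spaced 100 kb moved it to -4.25 points. Within 250 kb of the genes, the differences in mean polarity turned to 1.82 points (alpha) and from 0.572 to -1.77 points (beta). The alpha minus beta difference in SD turned to 1.29 (WT) and 2.04 points (KO), and its genotype difference from -2.01 to 0.752 points. That in mean absolute polarity moved to -14.1 (WT) and -17.3 points (KO). The alpha rise was -3.77 points with each library's own segment ends and -1.67 points with a running mean of 9 windows. The difference in rising segments of the alpha locus went from -0.5 to 0.5 with a minimum change of 0.5 SD.

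Differing windows over all autosomes numbered 13, against 72 over overlapping windows, 24 without the outer 0.5%, 88 after standardising, 0 on the atanh scale (limma, with 2655 at an unadjusted p under 0.05), 302 with trend and robust options, 54 at an adjusted p under 0.1, 630 with the replicate block and 856 with the block and standardising. In the alpha locus the count was 0 with the block and 1 with the block and standardising; in the beta locus it was 0 under both. Deviations of same-numbered libraries correlated at 0.241 over all windows, 0.383 in the alpha and 0.484 in the beta locus, and no label ties the numbers to a shared culture or day. Omission of 1 library gave 7 to 4790 differing windows over all autosomes and 0 to 2 in each locus. It gave -3.25 to 2.51 points for the difference in mean polarity of the alpha locus, -0.205 to 1.35 points for the beta locus, -1.18 to 3.28 points for the SD of the alpha locus, 0.170 to 5.95 points for that of the beta locus (the lowest without KO replicate 1), -4.26 to 4.93 points for the alpha rise and -2.87 to 19.8 points for the beta rise.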

Other observations

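The number of sign changes differed between libraries of a genotype. On the running mean of 5 windows, polarity changed sign 9 times in the alpha locus in KO replicate 2, against 3 times in KO replicate 1 and 3 and 2 times in WT replicates 1 and 2. In the beta locus it changed sign 4 times in KO replicate 1 and 2 times in each of the other libraries. The local residual SD is the SD of each window's value minus the mean of the windows 100 kb to either side. It was 7.57 and 7.04 points for WT and 10.3 and 10.2 points for KO over the alpha locus, and 7.65 and 6.76 points for WT and 10.6 and 9.56 points for KO over the beta locus. Both loci therefore had similar local residuals within each library, while their SDs of polarity differed. The part of depth in these values was not tested.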
